A study of Rattus norvegicus with 7 samples.

Results

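The anterior pituitary hormone genes Cga, Tshb, Lhb, Fshb, Prl and Gh1 and the pituitary transcription factor gene Pitx1 were followed through RNA sequencing libraries of rat hippocampus and hypothalamus. These 7 genes were chosen by their measured levels in the same libraries, so their levels and tissue differences are given as a description, without a test. All 7 were among the 15805 gene symbols found in both expression tables, and each had a single locus per table. The libraries came from male Sprague Dawley rats that were 2 months old at the start and were fed docosahexaenoic acid (DHA), a long-chain omega-3 fat, for 6 weeks. There were 4 hippocampus and 3 hypothalamus libraries, all from the DHA diet, and rats on chow were not analysed here. Whether a hippocampus and a hypothalamus library with the same replicate number came from 1 rat, and whether the pituitary stalk or the tissue around it stayed on the dissected hypothalamus, is not given in the sources used here. Values are FPKM, fragment numbers divided by transcript length and by library size, so that levels of different genes can be set side by side.

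Thyrotropin, luteinizing hormone and follicle-stimulating hormone are glycoprotein hormones made of a shared alpha subunit, encoded by Cga, and a specific beta subunit, encoded by Tshb, Lhb or Fshb. Prolactin (Prl) and growth hormone (Gh1) are single-chain hormones of another family, made in large amounts by lactotrophs and somatotrophs of the pars distalis, the main part of the anterior pituitary. A thin sheet of pituitary tissue, the pars tuberalis, lies against the median eminence at the base of the hypothalamus. Its cells make thyrotropin from Cga and Tshb under the control of melatonin, and this thyrotropin acts on tanycytes, the glial cells that line the floor of the third ventricle.

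The promoter windows show the sequence around RefSeq start sites of the subunit genes that were above 0 in every hypothalamus library and of Prl, which was listed at 0. RefSeq start site windows were matched by symbol for 4 of the 7 genes, on the assembly GRCr8. Each window runs 5′ to 3′ from 250 bases before the start to 50 after it, and capitals mark motif matches. Cga lies at chr5:54283090-54283389 on the plus strand, Tshb at chr2:192918005-192918304 on the minus strand, Lhb (the first of its 2 listed starts) at chr1:105037207-105037506 on the plus strand and Prl at chr17:38298168-38298467 on the minus strand.
Cga: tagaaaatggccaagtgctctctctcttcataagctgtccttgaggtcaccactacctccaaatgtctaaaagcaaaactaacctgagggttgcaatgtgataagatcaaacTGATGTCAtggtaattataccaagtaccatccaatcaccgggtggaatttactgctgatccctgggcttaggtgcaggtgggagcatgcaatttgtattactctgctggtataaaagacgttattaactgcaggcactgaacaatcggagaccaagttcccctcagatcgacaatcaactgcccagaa
Tshb: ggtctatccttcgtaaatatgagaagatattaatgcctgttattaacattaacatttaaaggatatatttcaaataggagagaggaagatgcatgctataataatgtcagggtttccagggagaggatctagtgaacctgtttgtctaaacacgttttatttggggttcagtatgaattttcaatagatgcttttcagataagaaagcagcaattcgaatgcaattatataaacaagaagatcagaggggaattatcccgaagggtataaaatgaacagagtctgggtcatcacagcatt
Lhb: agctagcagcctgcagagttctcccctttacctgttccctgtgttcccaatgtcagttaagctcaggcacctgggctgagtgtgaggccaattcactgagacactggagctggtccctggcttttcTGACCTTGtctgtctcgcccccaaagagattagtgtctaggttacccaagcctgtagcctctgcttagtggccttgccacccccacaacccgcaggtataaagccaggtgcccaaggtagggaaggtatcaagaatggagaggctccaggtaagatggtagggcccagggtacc
Prl: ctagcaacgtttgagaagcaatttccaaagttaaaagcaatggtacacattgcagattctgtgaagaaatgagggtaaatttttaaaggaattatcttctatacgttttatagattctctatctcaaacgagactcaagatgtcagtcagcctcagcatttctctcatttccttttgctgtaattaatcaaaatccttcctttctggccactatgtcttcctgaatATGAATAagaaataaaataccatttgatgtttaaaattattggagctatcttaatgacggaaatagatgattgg

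Motifs were searched on both strands as TAATCC (the bicoid type bound by Pitx factors), TATNCAT (POU1F1), TGACCTTG (NR5A1) and TGACGTCA (the cyclic AMP response element), and no window held more than 1 match. The Lhb window held TGACCTTG at 124 to 117 bases before its start, a motif found in 1.52% of all 33469 windows of this length. The Prl window held 1 match to TATNCAT, read as ATGAATA on the strand shown, at 24 to 18 bases before the RefSeq start, against 9.88% of all windows. Whether that start is the one used in pituitary cells was not examined. The Cga window held none of the 4, and TGATGTCA, a variant of the cyclic AMP response element that was added after the sequences were seen, stood at 138 to 131 bases before the start (4.34% of all windows). The Tshb window and the other Lhb window held none of the 5 motifs, and TAATCC (7.17% of all windows) and TGACGTCA (1.83%) were in no window of the 4 genes. A match is a run of letters and no evidence of binding.

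The tissue labels matched the marker genes listed for them. All 8 hypothalamic markers, Avp, Oxt, Hcrt, Pmch, Agrp, Pomc, Sim1 and Nkx2-1, were higher in every hypothalamus library, and all 4 hippocampal markers, Neurod6, Wfs1, Itpka and Slc17a7, were higher in every hippocampus library. Replicate 1 stood apart in both tissues: across loci, which are not independent, Pearson r of log2(FPKM + 1) was 0.897 to 0.905 for its hypothalamic pairs against 0.971 for replicates 2 and 3, and 0.827 to 0.890 for its hippocampal pairs against 0.944 to 0.966. The hypothalamic ranges of members and lists are also given without it where they differ by much. The 2 tissues come from separate tables and were not tested against each other, and tissue and table cannot be told apart.

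Cga, the common alpha subunit gene, was the most abundant of the 7 genes in hypothalamus. It read 70.4, 282 and 183 FPKM in hypothalamus replicates 1 to 3 (178 ± 106, SD, n = 3). In hippocampus it read 0.0639 FPKM in replicate 1 and was listed at 0 in the other 3 libraries. The tissues did not overlap, and every hypothalamus library lay at least 6.07 above the highest hippocampus library on the log2(FPKM + 1) scale. Within hypothalamus the highest library was 4.02 times the lowest, and replicate 1 was the low one. By mean FPKM it ranked 386th of the shared symbols in hypothalamus, above 97.6% of them.

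Tshb, which encodes the thyrotropin beta subunit, had the same order of libraries at a lower level. It read 3.64, 15.2 and 5.27 FPKM in hypothalamus replicates 1 to 3 (8.04 ± 6.27, SD, n = 3). Hippocampus replicate 4 read 0.157 FPKM and the other 3 were listed at 0. Replicate 2 was high, at 4.18 times replicate 1 and 2.89 times replicate 3, while replicates 1 and 3 lay closer together. In the RefSeq annotation Tshb lies within the span of Tspan2, a tetraspanin gene on the opposite strand, and the strand setting of the quantification is not given in the sources used here. Tspan2 read 86.8, 58.7 and 46.9 FPKM in hypothalamus, highest in replicate 1, where Tshb was lowest. In hippocampus Tspan2 read 76.6, 79.3, 83.5 and 89 FPKM while Tshb was at or near 0. The part of Tspan2 in the Tshb values was not tested.

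Lhb, which encodes the luteinizing hormone beta subunit, was the only member above 0 in every hippocampus library. It read 0.796, 0.507, 1.36 and 0.414 FPKM in hippocampus replicates 1 to 4 (0.768 ± 0.424, SD, n = 4) and 2.46, 8.71 and 19.1 FPKM in hypothalamus replicates 1 to 3 (10.1 ± 8.41, SD, n = 3). Here replicate 3, not replicate 2, was the high hypothalamus library, at 2.2 times replicate 2 and 7.78 times replicate 1. The gap between the lowest hypothalamus and the highest hippocampus library was 0.55 on the log2(FPKM + 1) scale, much smaller than for Cga. Lhb overlaps the gene Saxo3 in RefSeq, which was not analysed here, and stands next to Ruvbl2, a gene of the opposite strand for a chromatin and helicase complex subunit. Ruvbl2 read 29.1, 25.8 and 35 FPKM in hypothalamus and 6.03 to 10.7 FPKM in hippocampus, so it too was higher in every hypothalamus library. Its part in the Lhb values was not tested.

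Fshb, which encodes the follicle-stimulating hormone beta subunit, was seen in 1 library only. Hypothalamus replicate 2 read 0.575 FPKM, and the other 6 libraries were listed at 0. That library was also the highest for Cga and Tshb.

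The alpha subunit gene exceeded the beta subunit genes in each hypothalamus library. Cga was 19.3, 18.6 and 34.6 times Tshb in replicates 1 to 3. Against Lhb it was 28.6, 32.4 and 9.55 times. The ratios to Tshb were thus close in replicates 1 and 2, where Cga itself differed 4.02-fold, and replicate 3 departed from them in both ratios. The summed FPKM of the 3 beta subunit genes was 6.1, 24.5 and 24.4, with Tshb contributing 59.7%, 62.1% and 21.6% and Lhb 40.3%, 35.5% and 78.4%. Replicates 2 and 3 therefore carried nearly equal beta subunit sums of different composition, and Cga was 11.5, 11.5 and 7.49 times the sum. Between Lhb and Tshb the order of the means does not hold beyond the spread, since Tshb was 1.48 and 1.75 times Lhb in replicates 1 and 2 and 0.276 times in replicate 3.

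**Figure D1:**
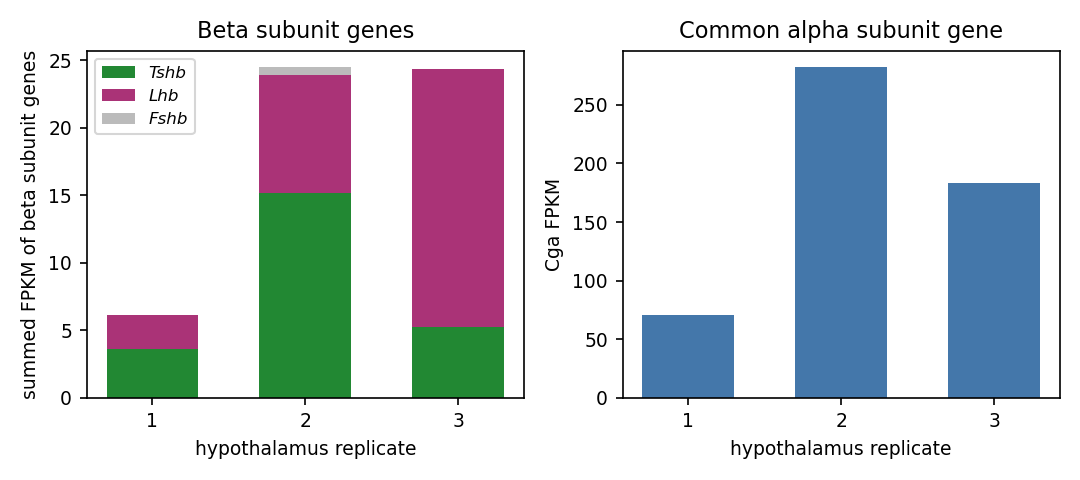
Left, FPKM of the beta subunit genes Tshb, Lhb and Fshb stacked for each of the 3 hypothalamus libraries; right, FPKM of Cga in the same libraries, 1 bar per library and no error bars. The beta sums of replicates 2 and 3 are nearly equal (24.5 and 24.4) but Lhb makes up 35.5% of one and 78.4% of the other.

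Prl and Gh1, the hormones of the most numerous pars distalis cells, were at or near 0 in the same hypothalamus libraries. Prl was listed at 0 in all 7 libraries. An exact 0 in these tables can be a failed estimate: 15.5% of the shared symbols were listed at 0 in all 7 libraries, among them Npy, a neuropeptide gene expressed in both regions, and Col1a2, a fibroblast collagen gene (both chosen after their values were seen). The value of Prl therefore says only how it is listed. Gh1 was estimated above 0 in some libraries, at 0.237, 0.0603 and 0 FPKM in hypothalamus replicates 1 to 3 and at 0.058 FPKM in hippocampus replicate 1, with the other 3 hippocampus libraries at 0. Its hypothalamic mean was 0.0992 ± 0.123 FPKM (SD, n = 3), and its tissues overlapped. Gh1 was highest in hypothalamus replicate 1, the library in which Cga, Tshb, Lhb and Pitx1 were lowest.

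Pitx1, a homeobox gene active throughout the anterior pituitary lineage, was low but present in hypothalamus. It read 0.196, 1.41 and 1.08 FPKM in hypothalamus replicates 1 to 3 (0.893 ± 0.626, SD, n = 3). In hippocampus it read 0.0121 FPKM in replicate 3 and was listed at 0 in the other 3. Replicates 2 and 3 lay close together and replicate 1 was the low library, with replicate 2 at 7.18 times replicate 1. The order of libraries was that of Cga and Tshb.

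In hypothalamus the levels thus ran from Cga at 178 FPKM through Lhb and Tshb at 10.1 and 8.04, which their spread does not separate, to Pitx1 at 0.893, Fshb at 0.192 and Gh1 at 0.0992. Prl was listed at 0, which may be a failed estimate, and is not ranked. The order of Pitx1, Fshb and Gh1 does not hold in each library either, since Gh1 was above Pitx1 in replicate 1 and Fshb and Gh1 were each listed at 0 in at least 1 library. In hippocampus no member reached a mean of 1 FPKM, and Lhb was the highest.

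**Figure D2:**
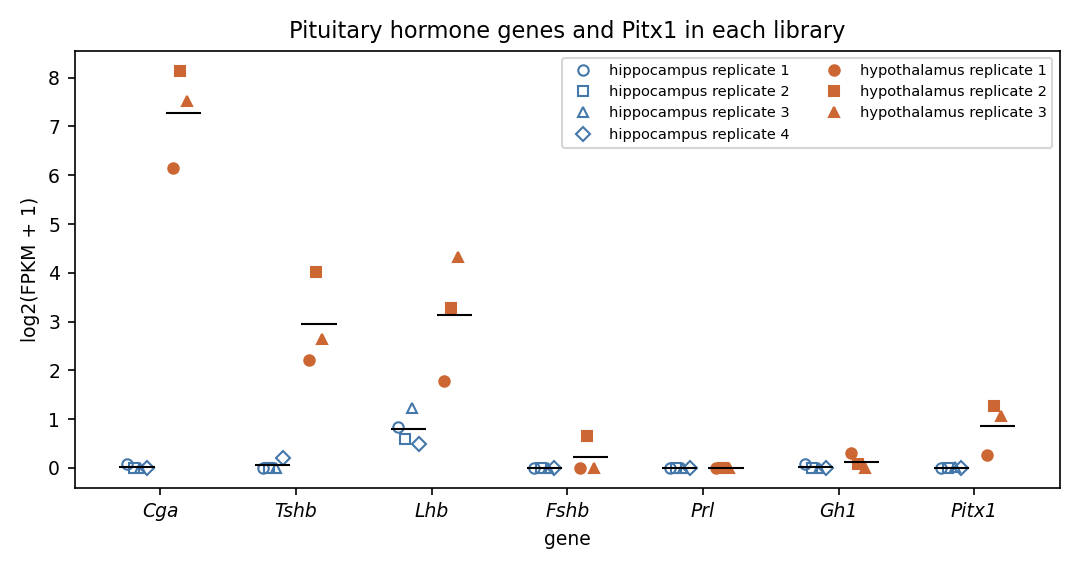
Points give log2(FPKM + 1) of the 7 genes in each library, open for the 4 hippocampus and filled for the 3 hypothalamus libraries, with a shape for each replicate number and a black line at the mean of the plotted values. Cga, Tshb, Lhb and Pitx1 lie higher in every hypothalamus library, while Prl is at 0 throughout and Fshb and Gh1 overlap.

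Of the 7 members, 4 (Cga, Tshb, Lhb and Pitx1) had their lowest hypothalamus value above their highest hippocampus value after all libraries were brought to 1 common sum, as did 19.0% of all shared symbols. Where either tissue had to average 1 FPKM or more, the share of symbols was 24.4%, and Cga, Tshb and Lhb met that minimum through their hypothalamic values alone. The members were chosen with this contrast in view, so the count is given as a description. The rescaled difference, hypothalamus minus hippocampus on the log2(value + 1) scale, was 8.43 for Cga, 3.93 for Tshb, 2.62 for Lhb and 1.47 for Pitx1. For Fshb it was 0.41, and 0.00 without hypothalamus replicate 2. For Gh1 it was 0.22, and 0.04 without hypothalamus replicate 1. In FPKM as deposited the differences of Cga, Tshb, Lhb, Pitx1, Fshb and Gh1 were 7.25, 2.91, 2.34, 0.86, 0.22 and 0.11, and the median of all compared symbols moved from −0.05 to 0.21. With that scaling 27.0% of all shared symbols were higher and 14.2% lower in every hypothalamus library, against 19.0% and 20.6% after rescaling. The added 1 makes the difference of a low gene such as Pitx1 smaller than its fold. In bulk tissue, fewer cells of a type and less RNA per cell cannot be told apart.

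Cga, Tshb and Lhb met the minimum mean of 1 FPKM, and all 3 ranged at least 2-fold over the hypothalamus libraries on the log2(FPKM + 1) scale, against 10.0% of 10444 symbols at that minimum. Pitx1, below the minimum, ranged by 1.01 on the log2 scale, and 6.77% of symbols reached 2-fold with no minimum set. A 4-fold range was met by 1 member, Lhb at 2.54 log2, against 1.28% of symbols, while Cga at 1.99 and Tshb at 1.81 were just under. In hippocampus no member averaged 1 FPKM, so none could be counted there, where 2.62% of symbols at that minimum ranged 4-fold. Without replicate 1 the hypothalamic range of Cga became 0.63, that of Lhb 1.05 and that of Pitx1 0.21. For Tshb it was replicate 2 that mattered, and without it the range was 0.44.

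Compared library by library, the members did not share 1 order. Cga, Tshb and Pitx1 were ordered replicate 2, then 3, then 1, an order found in 11.5% of symbols averaging 1 FPKM or more, a minimum that Pitx1 did not reach. Replicate 2 was the highest library for 4 members, Fshb (above 0 in that library alone) being the other, where it was the highest for 20.4% of symbols averaging 1 FPKM or more, a minimum that Cga and Tshb reached and Fshb and Pitx1 did not. Lhb was highest in replicate 3 and Gh1 in replicate 1, and Prl had no order. Replicate 1 was the lowest for Cga, Tshb, Lhb and Pitx1, as it was for 35.9% of symbols averaging 1 FPKM or more. On the log2(FPKM + 1) scale Cga and Lhb were at least 2-fold lower in replicate 1 than in both other libraries, as were 1.29% of the 9440 symbols with a single hypothalamic locus averaging 1 FPKM or more, and Tshb was not. Pitx1, which did not average 1 FPKM, missed the 2-fold mark only through the added 1. Its replicates 2 and 3 were 7.18 and 5.49 times replicate 1 in FPKM. Summed over the 7 genes, hypothalamus replicates 1 to 3 held 76.9, 308 and 208 FPKM, of which Cga made up 91.5%, 91.6% and 87.8%. The hippocampus libraries held 0.507 to 1.37 FPKM.

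Other genes of pituitary cells were read from a list of 20 lineage factors and receptors, of which 19 were found in both tables and Lhx3 was not analysed here. Of the 19, 9 were higher in every hypothalamus library and 2 were lower, and 10 and 2 with FPKM as deposited, where Trhr joined (chosen after its values were seen). Of all shared symbols 19.0% were higher and 20.6% lower after rescaling, and 27.0% and 14.2% with FPKM as deposited. Many of these genes also act in hypothalamic neurons, which limits what the list shows. Hesx1, a homeobox gene of the early pituitary (chosen after its values were seen), was listed at 0 in all 7 libraries. Isl1 read 8.91, 10.6 and 10.6 FPKM in hypothalamus and Nr5a1, a factor of gonadotrophs and of the ventromedial hypothalamus, read 2.09, 6.37 and 6.58 FPKM, lowest in replicate 1 as Lhb was. Ghrhr and Gnrhr, the receptor genes that mark somatotrophs and gonadotrophs, were at most 0.0221 and 0.12 FPKM in hypothalamus (both chosen after their values were seen). Gnrhr was lower in every hypothalamus library than in hippocampus, where it read 0.201 to 0.514 FPKM, the opposite direction to Lhb.

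Pou1f1 encodes the factor that drives Prl, Gh1 and Tshb in the pars distalis, and its value depends on the locus. In hypothalamus 1 locus of that symbol read 0, 0.0171 and 0 FPKM and another read 25.2, 17.7 and 18.3 FPKM. In hippocampus the single locus read at most 0.0174 FPKM. The higher hypothalamic locus was listed between Htr1f and Cadm2 and the lower between Cggbp1 and Gbe1. Which of them holds the transcript of Pou1f1 was not settled, so its level and its place among the 9 higher genes stay uncertain. Tbx19, the corticotroph and melanotroph factor, read 2.4, 3.23 and 4.47 FPKM, and Pax7, which marks melanotrophs of the intermediate lobe, read 0.125 FPKM in replicate 1 and 0 in the others.

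Genes listed for the pars tuberalis were Mtnr1a, Eya3, Nmu, Chga and Tef. Mtnr1a, the melatonin receptor gene of these cells, read 0.286, 0.564 and 0.423 FPKM in hypothalamus and was listed at 0 in every hippocampus library, with the same order of libraries as Cga. Nmu, which encodes neuromedin U, read 6.44, 8.49 and 8.18 FPKM against 0 to 0.35 FPKM in hippocampus. These 2 were higher in every hypothalamus library, against 19.0% of all shared symbols. Eya3 and Tef, which are expressed in many cells, were lower in every hypothalamus library, against 20.6% of symbols, at 4.21 ± 0.603 against 7.32 ± 1.54 FPKM for Eya3 and 41.4 ± 1.68 against 91.3 ± 4.98 FPKM for Tef (SD, n = 3 and n = 4). Chga, a granule protein gene of neurons and endocrine cells, overlapped between tissues through 1 library of the hippocampal locus used, at 0, 35.6, 23.8 and 273 FPKM. Its other hippocampal locus read 15.8 to 34.7 FPKM, below every hypothalamus library, so the call depends on the locus. All 4 that averaged 1 FPKM or more in hypothalamus, Eya3 and Tef included, were lowest in replicate 1, against 35.9% of symbols. One of them, Chga at 244, 462 and 670 FPKM, ranged 2-fold, against 10.0% of symbols, and none did without replicate 1, against 2.59%.

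Genes for factors that reach the pituitary through the median eminence, and for their synthesis or uptake, were higher in hypothalamus. Each of the 11 releasing and inhibiting factor genes present in both tables was separated upward in hypothalamus under each of the 3 scalings, where 19.0% of all shared symbols were after rescaling and 27.0% in FPKM as deposited, and Tac3 was not analysed here. Trh, which encodes the releasing hormone of thyrotropin and prolactin, read 75.5, 108 and 145 FPKM. Th, the dopamine synthesis gene of the neurons that hold back prolactin, read 20.4, 26.3 and 26.4 FPKM, and Npvf, which encodes gonadotropin-inhibitory peptides, read 26.4, 73.5 and 88.6 FPKM. These 3 were lowest in replicate 1, as Cga was. Trh and Npvf were highest in replicate 3, and Th was nearly equal in replicates 2 and 3. Ghrh, the growth hormone releasing hormone gene of the arcuate nucleus, read 8.6, 38.5 and 17.5 FPKM, the order of Cga and Tshb, and Kiss1 read 3.12, 7.86 and 10.3 FPKM, the order of Lhb (both chosen after their values were seen). Of the 10 that averaged 1 FPKM or more, 6 were lowest in replicate 1, 4 in replicate 2 and none in replicate 3, against 35.9% of symbols lowest in replicate 1. Of the 10, 5 ranged 2-fold over the 3 libraries, against 10.0% of symbols, and 2 did without replicate 1, against 2.59%. Oxt was among those lowest in replicate 2, at 2966, 1024 and 2000 FPKM.

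Tanycyte and median eminence genes stood beside the same libraries. Of 7 found in both tables, 5 were lowest in hypothalamus replicate 1, 2 in replicate 3 and none in replicate 2, and 3 ranged 2-fold or more, against 10.0% of symbols. Replicate 1 was the lowest for 35.9% of all symbols at the same minimum. The median range of the 7 was 0.87 on the log2 scale, against 0.47 for all 10444 symbols, and without replicate 1 it was 0.44 against 0.19, with 1 gene ranging 2-fold, against 2.59% of symbols. Rax, a tanycyte homeobox gene, read 1.7, 5.97 and 6.21 FPKM and was listed at 0 in all 4 hippocampus libraries. Gpr50 read 3.9, 4.04 and 5.81 FPKM, and Vim, which fibrous and vascular cells express as well, read 325, 410 and 183 FPKM. Dio2, the thyroid hormone activating enzyme that thyrotropin controls in tanycytes, was lower in every hypothalamus library than in hippocampus, at 3.99, 6.06 and 4.34 FPKM against 7.07 to 10.4 FPKM. Crym was lower too, at 18.1, 29 and 46.6 FPKM against 215 to 311 FPKM. Of the 7 genes, 4 were higher and 2 lower in every hypothalamus library, against 19.0% and 20.6% of all shared symbols. Col25a1 was not analysed here. Whether the amount of tissue from this region set the member levels was not tested.

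**Figure D3:**
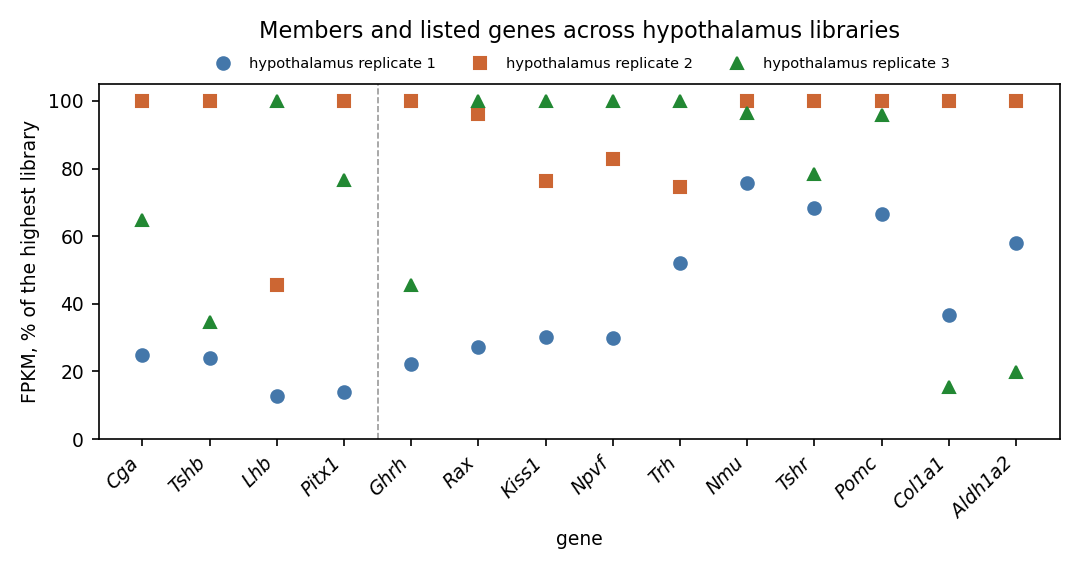
FPKM of each gene in the 3 hypothalamus libraries as a percentage of its highest library, with the members Cga, Tshb, Lhb and Pitx1 left of the dashed line and listed genes, chosen after their values were seen, right of it. Replicate 1 is the lowest for all genes shown except Col1a1 and Aldh1a2, for which replicate 3 is. The genes shown do not stand for their lists. Of 10 releasing and inhibiting factor genes averaging 1 FPKM or more, 4 were lowest in replicate 2. Replicate 1 was the lowest for 35.9% of symbols at that minimum.

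Receptors for these hormones differed in level. Tshr, the thyrotropin receptor gene, read 1.57, 2.3 and 1.8 FPKM in hypothalamus and 0.207 to 0.3 FPKM in hippocampus, and its hypothalamic order was that of Cga and Tshb. Ghr, the growth hormone receptor gene, read 6.67, 6.88 and 8.02 FPKM against 2.34 to 3.56 FPKM. Lhcgr was at most 0.0628 FPKM, Fshr was listed at 0 in all 7 libraries and Mc2r was at most 0.0755 FPKM. Prlr, the prolactin receptor gene, read 3.4, 0.137, 6.86 and 4.43 FPKM in hippocampus replicates 1 to 4 and 1.15 to 1.79 FPKM in hypothalamus, so the tissues overlapped. It was lowest in hippocampus replicate 2, as was Ttr, a choroid plexus gene, at 4651, 31.9, 5771 and 1967 FPKM. Of the 6 receptor genes, Tshr, Ghr and Lhcgr were higher in every hypothalamus library, against 19.0% of all shared symbols. Among 6 listed genes of prolactin and growth hormone signalling, Igf1, Stat5a and Stat5b were higher in every hypothalamus library and Jak2 was lower. Of all shared symbols 19.0% were higher and 20.6% lower after rescaling. With FPKM as deposited the shares were 27.0% and 14.2%, and Cish and Socs3 joined the higher genes of this list. Socs2 was found in the hypothalamus table alone.

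Tissues that adjoin the base of the brain also differed between the hypothalamus libraries. All 8 meninges genes averaging 1 FPKM or more were highest in replicate 2, as Cga and Tshb were, but lowest in replicate 3, where Cga and Tshb were not. This order was found in 8.94% of symbols at that minimum. Col1a1, a fibroblast collagen gene, read 18.9, 51.7 and 8 FPKM, and Aldh1a2 read 21.7, 37.5 and 7.39 FPKM. The summed FPKM of the 9 meninges genes was 226, 471 and 87.9 in hypothalamus and 34.9 to 297 in hippocampus. Alas2 and Slc4a1, the 2 erythroid genes found, summed to 8.59, 23.1 and 6.2 FPKM in hypothalamus, again highest in replicate 2. Choroid plexus genes summed to 40.3, 54.1 and 15.3 FPKM, of which Ttr alone was 30.7, 44.4 and 8.25 FPKM, while Clic6 read 2.74, 2.8 and 3.18 FPKM. The part of these tissues in the member levels was not tested.

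**Figure D4:**
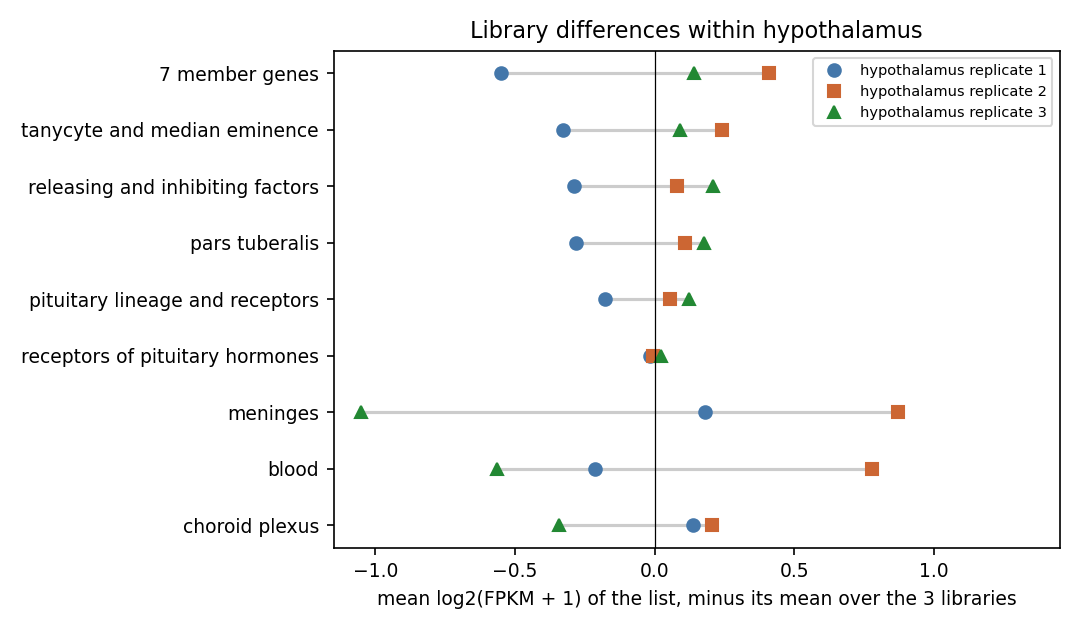
Mean log2(FPKM + 1) of the 7 members and of 8 gene lists in each hypothalamus library, as the difference from the mean of the 3 libraries. The members run from replicate 1 (level 1.53) to replicate 2 (level 2.49), and the meninges, blood and choroid plexus lists have replicate 2 highest and replicate 3 lowest. That order was found in 8.94% of symbols averaging 1 FPKM or more.

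Pomc, the precursor gene of corticotropin in the pituitary and of melanocortins in the arcuate nucleus, read 94, 141 and 135 FPKM in hypothalamus replicates 1 to 3, again lowest in replicate 1. Hippocampus replicate 1 read 5.07 FPKM, where the other 3 lay between 0.192 and 0.734 FPKM. Hippocampus replicate 1 also held the only Cga and Gh1 values above 0 in that tissue. Avp was also high there, at 2.07 FPKM against 0 to 0.337 FPKM in the other 3, while Oxt was listed at 0 in every hippocampus library and Agrp was lowest in replicate 1, at 0.154 FPKM.

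The profile most like that of Lhb, the member with the largest hypothalamic range, was sought among 10736 symbols that averaged 1 FPKM or more in either tissue. Likeness was the root mean square difference of log2(FPKM + 1) over the 7 libraries, after the mean of each tissue was taken off, so a smaller value means a closer profile. The 5 nearest were St8sia2 (0.234), Cited1 (0.257), Nr1i3 (0.259), Gbf1 (0.283) and Xkr7 (0.283). Cited1 read 13.8, 41.9 and 61.6 FPKM in hypothalamus. St8sia2, Gbf1 and Xkr7 each had 2 hypothalamic loci, and the profile is that of the locus with the higher mean. The other locus was nearly level over replicates 1 to 3, for example 2.3, 2.35 and 2.41 FPKM for St8sia2, so the likeness rests on the choice of locus. With Cga and Tshb as the reference, chosen after their values were seen, the nearest were Ebf2 (0.060), Mir3597-2 (0.137), Sorbs3 (0.146), Six6 (0.152) and Sap18 (0.155) for Cga. Ebf2 and Six6 also had 2 hypothalamic loci each, and the other locus did not follow Cga, at 0.619, 0.487 and 0.409 FPKM for Ebf2 and 1.75, 1.9 and 1.63 FPKM for Six6. For Tshb the nearest were Enpp6 (0.084), Prlh (0.085), Shisa3 (0.138), Cd52 (0.156) and Il2rg (0.169). Prlh, which encodes prolactin releasing hormone, read 1.75, 8.67 and 3.17 FPKM in hypothalamus and was listed at 0 in hippocampus. Among the members, Cga lay at 0.265 from Pitx1, 0.275 from Tshb and 0.508 from Lhb.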

How the data were processed

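Poly-A RNA was sequenced on an Illumina HiSeq 2000, per the labels' protocols. The authors computed FPKM per locus and deposited 1 table per tissue, with 18087 loci in hippocampus and 17762 in hypothalamus. TopHat, TopHat2, Bowtie, Bowtie2, Cufflinks, Cuffdiff and the build rn5 are named without role or version, per the submitters' processing notes. Annotation, strand setting and scaling are not given in the sources used here. Loci not marked OK throughout (86 and 24) were left out, and the locus with the highest mean was used per symbol. Levels were compared as log2(FPKM + 1). For tissue comparisons the 15805 shared symbols of every library were scaled to sum to 1000000. Deposited FPKM summed to 370020 to 391349 in hippocampus and 443335 to 471484 in hypothalamus libraries.

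Absolute depth is unknown, so no counting interval was made. Among low loci, between 0 and 0.1 FPKM in 2 libraries, 25.7% shared 1 ratio (a bin 0.02 wide in log2) in hypothalamus replicates 2 and 3, at which a fragment of replicate 2 was worth 0.883 of one of replicate 3. At most 2.75% did in pairs with replicate 1 of either tissue. Nothing says the replicates are separate rats, so the spread may be technical.

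The 7 members and the 12 gene lists were chosen with earlier results of these data known. Genes named are all members, up to 6 genes a list by hypothalamic mean, listed genes that define a cell type, neighbours of members in RefSeq (GRCr8, used for gene order and names) and the 5 nearest profiles. Others are marked as chosen after their values were seen, and some listed genes are not reported here. No test between groups was run: all libraries of a tissue form 1 group, and the tables appear to be separate quantification runs. Planned protein comparisons were not made. Functions were checked on simulated data. Calculations used Python 3.11.15, pandas 2.3.3 and numpy 2.4.6. Alternatives were other scalings, pseudocounts of 0.1 and 5, summed loci, other minimum levels and leaving out each library.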

Additional observations from a re-analysis of the deposited data

Results flagged for a closer look

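In the hippocampus libraries, 7 of 23 results examined had 1 library far from the other 3, by the critical value of Dixon's ratio of the gap to the range. Chance flags about 1 in 20 such groups, and a gene with 1 value above 0 always meets the criterion. This was so for Cga (0.0639 FPKM in replicate 1), Tshb (0.157 FPKM in replicate 4), Gh1 (0.058 FPKM in replicate 1) and Pitx1 (0.0121 FPKM in replicate 3), each listed at 0 in the other 3 libraries. The intermediate lobe list stood apart at 2.28 in replicate 1 and the hypothalamic marker list at 0.87 in replicate 1, both as mean log2(FPKM + 1) and both holding Pomc (5.07 FPKM there). The second also holds Avp (2.07 FPKM there). Chga was high at 273 FPKM in replicate 4, with another hippocampal locus at 15.8 to 34.7 FPKM.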

How the results depend on the processing

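The count of 4 members higher in every hypothalamus library was 4 under each of 3 scalings. It was 4 with loci summed as well. Other pseudocounts and leaving out a library could not lower it by construction. The count of members highest in hypothalamus replicate 2 was 4 after rescaling and 5 without replicate 1 or replicate 3. The count of members with a 4-fold hypothalamic range, 1 as reported, was 2 after rescaling, 5 with a pseudocount of 0.1 and 0 with a pseudocount of 5. No minimum level was set for this count. The 5 include Fshb and Pitx1, which lay below the mean of 1 FPKM that the share of all symbols, 1.28% as reported, requires. The count ran from 0 to 1 when 1 library was left out, 0 without replicate 1 and 0 without replicate 3. The share of all symbols with that range, 1.28% as reported, was 1.93% after rescaling, 0.832% with loci summed, 2.28% and 0.565% with pseudocounts of 0.1 and 5, 0.848% with no minimum level and 0.49% to 0.867% with a library left out. Leaving out replicate 1 of both tissues, an alternative added after the data were seen, gave 0 members and 0.49%. The rescaled tissue difference of Cga ran from 6.18 to 11.43 and that of Pitx1 from 0.48 to 3.98 with pseudocounts of 5 and 0.1. No tissue difference changed sign, and that of Fshb fell to 0.00 without hypothalamus replicate 2. For Cga, Tshb, Lhb and Pitx1, separated between the tissues, other pseudocounts and leaving out a library could not change the sign. For Fshb and Prl, listed at 0 in every hippocampus library, no setting could make the difference negative. The causes of the changes between settings were not tested. Depth is unknown, so the error of low values such as those of Fshb, Gh1 and Pitx1 cannot be given. No paired analysis was possible because the labels do not say that libraries with the same number share a rat, and no difference between the tables was tested.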
